A study of Mus musculus with 120 samples.

Results

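Akkermansia, Helicobacter and Mucispirillum are 3 bacterial genera of the mouse gut that live in or next to the mucus layer. They were taken from a table of 16S rRNA gene amplicon variants by the genus name that the authors' taxonomy gives each variant. That rule found 21 of 13844 sequence variants, of which 4 were Akkermansia, 12 were Helicobacter and 5 were Mucispirillum, and they formed 3 of the 583 genus names in the table. The taxonomy placed the variants in the families Akkermansiaceae (phylum Verrucomicrobiota), Helicobacteraceae (Campylobacterota) and Deferribacteraceae (Deferribacterota), where these genera belong, and named no species for any of them.

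Gut contents were taken from the cecum and from the colon of C57BL/6N mice. At 10 weeks of age the animals entered single housing, in which they were held for 42 days under 1 of 5 light cycles. The cycles were LD0/24, LD8/16, LD12/12, LD16/8 and LD24/0, written as hours of light over hours of dark. At each light cycle some mice had a cocktail of broad-spectrum antibiotics in the drinking water, with the same irradiated feed as the chow mice, which had sterilised water without antibiotics. The 120 samples comprised 30 cecal and 29 colonic samples from antibiotics mice, against 31 cecal and 30 colonic samples from chow mice, with 5 to 7 samples at each combination of site, diet and light cycle.

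The labels do not name the antibiotics and do not tie a cecal sample to a colonic one, so whether a pair came from the same mouse was not known. The extraction protocol in the labels speaks of rumen material, which a mouse does not have, and the sample labels themselves name colonic and cecal contents. Each sample had 39157 to 73076 counts. A count of 0 allowed a share of up to 0.004105% of the counts in the deepest sample and up to 0.007661% in the shallowest, for counting error only. Contents were sampled, not the mucus itself. A set of 11 genera, among them Lentilactobacillus, Fusobacterium and Neisseria, set the cecal chow samples apart. These genera averaged 2.34% of cecal counts with antibiotics and 0.0272% on chow, against 2.69% and 2.32% in the colon, and they were singled out with these values known.

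Mucus of the large intestine is a gel of the mucin MUC2, with a dense inner layer and a looser outer layer that bacteria inhabit. Akkermansia species break down mucin glycans and use them as carbon and nitrogen source. Helicobacter species of the mouse cecum and colon are curved, motile bacteria that swim in mucus and crypts, and Mucispirillum is a spiral genus known from the mucus of rodents. Shares of counts are relative, so a lower share can come from fewer cells of a genus or from more of the others, which cannot be told apart here.

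Over all light cycles together, all 3 genera made up a small part of the community on chow and less with antibiotics, in both sites. In the colon at LD8/16 Akkermansia went the other way, with a mean of 0.0222% with antibiotics and 0.00933% on chow. Akkermansia averaged 0.00762% ± 0.00889 of the counts in the cecum of antibiotics mice and 0.995% ± 1.71 in that of chow mice (SD, n = 30 and 31). Helicobacter averaged 0.00825% ± 0.00809 with antibiotics and 0.227% ± 0.5003 on chow in the cecum. Mucispirillum averaged 0.000964% ± 0.00267 with antibiotics and 0.0590% ± 0.111 on chow in the same site. By mean share Akkermansia ranked 95th of the 311 genus names seen in the cecum with antibiotics, against 16th of 369 on chow.

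**Figure D1:**
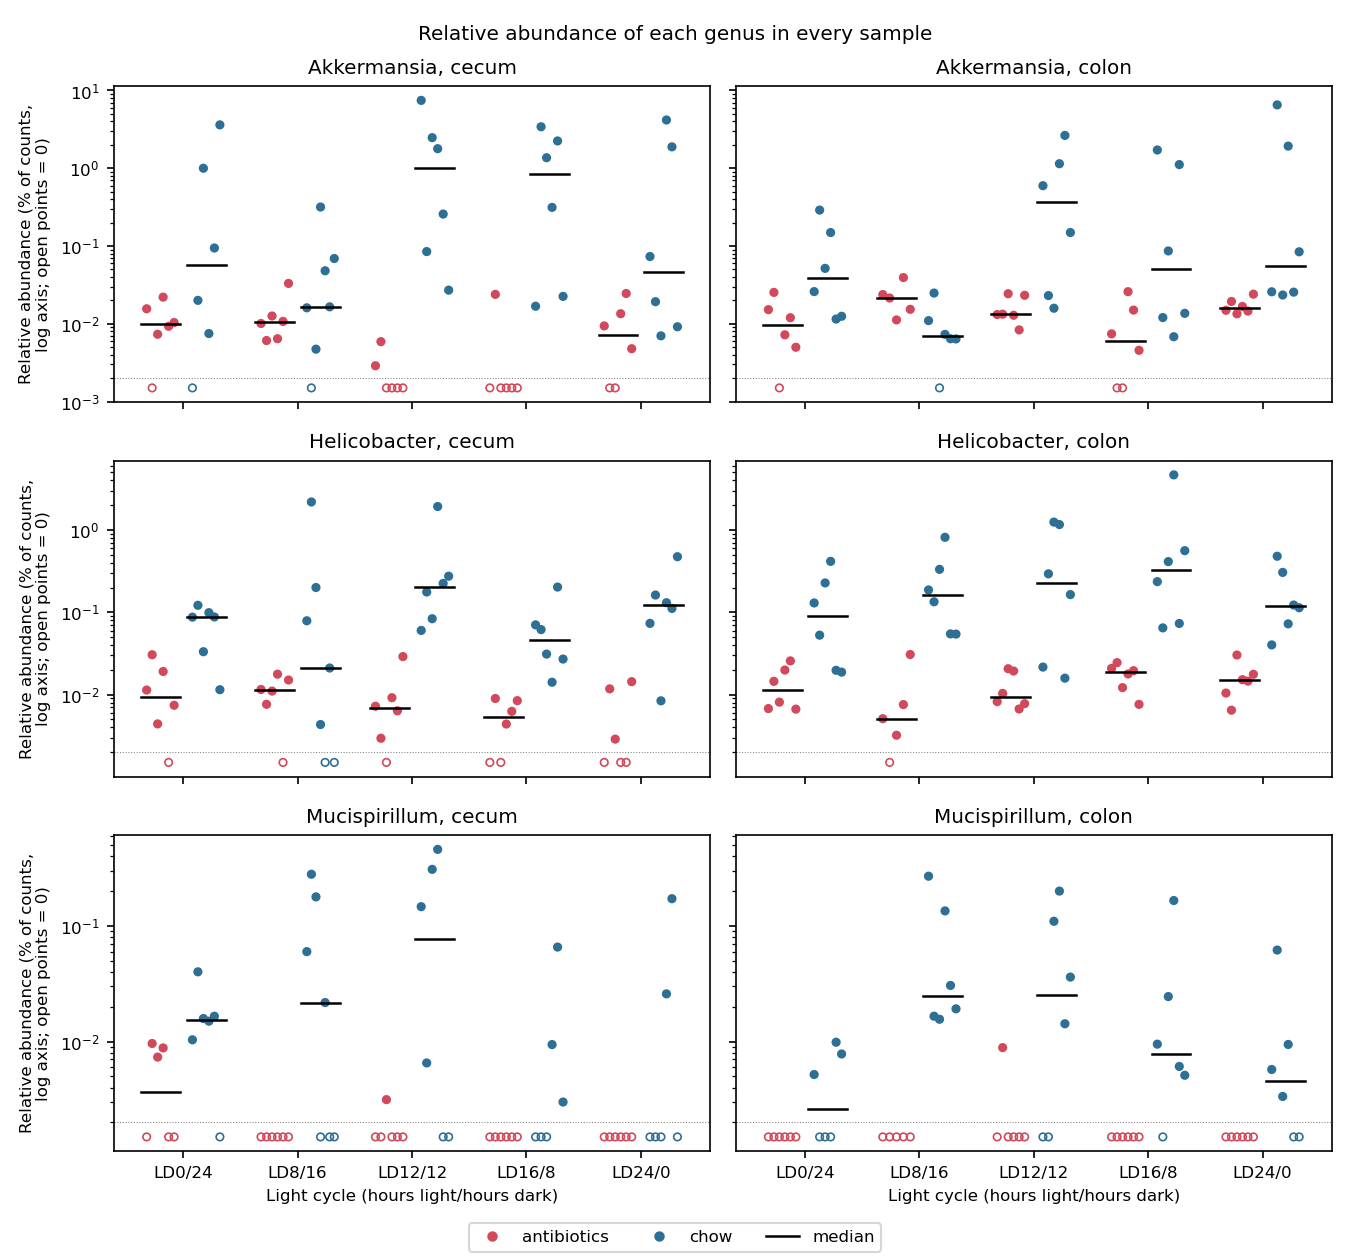
Share of counts (percent, log axis) of Akkermansia, Helicobacter and Mucispirillum in each of the 120 samples, by light cycle, with antibiotics left of chow and the cecum in the left column. Open points are counts of 0, drawn below the dotted line, and bars are medians, left out where they lie below that line. No sample with antibiotics exceeded 0.0393%, while chow samples reached 7.46% for Akkermansia.

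In the cecum, Akkermansia had counts of 0 in 12 of 30 antibiotics samples, with a median of 0.00600% and a highest value of 0.0331%. Cecal chow samples ran from 0% through a median of 0.0733% to 7.46%. All 30 antibiotics samples lay below the chow mean, but 13 of 31 chow samples lay at or below the highest antibiotics sample, so the groups overlapped at their low end.

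In the colon, Akkermansia ran from 0% through a median of 0.0146% to 0.0393% with antibiotics, against 0%, 0.0257% and 6.53% on chow. The chow mean of 0.558% was 37.9 times the antibiotics mean of 0.0147%, while the chow median was 1.76 times the antibiotics median. Akkermansia exceeded 0.1% in 10 of the 30 chow samples, and 17 of the 30 lay at or below the highest antibiotics sample.

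Helicobacter in the cecum ran from 0% through a median of 0.00732% to 0.0305% with antibiotics, against 0%, 0.0835% and 2.19% on chow. In the colon the antibiotics samples ran from 0% through 0.0122% to 0.0307%, against 0.0158%, 0.149% and 4.67% on chow. Helicobacter had the least overlap of the 3 genera. In the colon 18 of 29 antibiotics samples lay below the lowest chow sample, and 4 of 30 chow samples reached down into the antibiotics range.

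Mucispirillum had counts of 0 in 26 of 30 cecal antibiotics samples, and its highest value there was 0.00963%. On chow the cecal samples ran from 0% through a median of 0.00942% to 0.458%. In the colon it was counted in 1 of 29 antibiotics samples, at 0.00886%, against a chow range of 0% to 0.268% with a median of 0.00947%. Mucispirillum was thus the rarest of the 3 genera in each site and diet, and 13 of 31 cecal and 8 of 30 colonic chow samples also had none.

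Diets were compared by edgeR's quasi-likelihood test on the genus counts, with light cycle as a factor, the total count of a sample as its library size and Benjamini-Hochberg adjustment over all genera tested. Akkermansia and Helicobacter fell in the cecum with antibiotics, where 58% of the 255 genera tested fell and 91.4% changed. Both also fell in the colon over all light cycles together, where 64.3% of 258 genera fell and 81% changed. Mucispirillum was also lower in both sites. A fall of this kind was the usual outcome of the comparison and does not set the 3 genera apart. With TMMwsp composition factors 80 genera rose and 145 fell in the colon, against 43 and 166 without them.

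In the cecum the log2 fold change of antibiotics over chow was -6.77 ± 0.98 (SE) for Akkermansia (edgeR adjusted p = 5.06e-09), where the median genus had -2.87. It was -4.45 ± 0.67 for Helicobacter (adjusted p = 1.33e-08) and -6.38 ± 0.98 for Mucispirillum. In the colon it was -4.41 ± 0.81 for Akkermansia (edgeR adjusted p = 1.84e-06), -4.58 ± 0.50 for Helicobacter (adjusted p = 1.81e-12) and -6.26 ± 0.75 for Mucispirillum, with a median of -3.62 over all genera. With TMMwsp factors the median genus in the colon moved to -2.32, and Akkermansia (-2.44) and Helicobacter (-2.30) lay close to it, while Mucispirillum (-4.75) lay lower. Mucispirillum passed the filter on low counts only through its chow samples, so a lower value with antibiotics was built into its selection. Its fold changes are therefore a description, and no test is given for them.

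The fall of Akkermansia in the colon was not called by limma on centred log-ratios, which gave a log2 difference of -0.84 (adjusted p = 0.186). With the log2 share of the 11 genera named above as a covariate, Helicobacter in the cecum had a log2 fold change of -3.54 (edgeR adjusted p = 0.0766). The falls of Akkermansia in both sites and of Helicobacter in the colon remained past the threshold with that covariate.

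**Figure D2:**
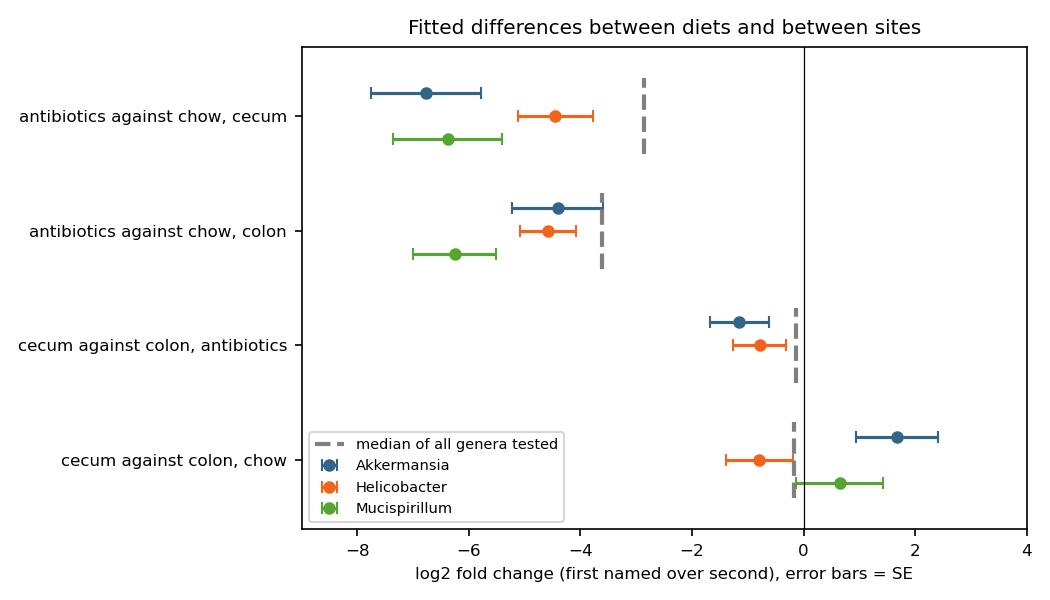
Log2 fold changes of the 3 genera (points, with SE as error bars) for each comparison of diets and sites, the first named group over the second. Grey dashed lines mark the median of all genera tested, and Mucispirillum has no point for the cecum against the colon with antibiotics, where too few samples held it. All 6 diet points lie left of the median genus, although with TMMwsp factors Helicobacter in the colon (-2.30) does not (median -2.32), while the points between sites lie on both sides of 0.

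Whether a genus was counted at all gave a second view of the diets. At a minimum of 3 counts, Akkermansia was found in 17 of 30 cecal samples with antibiotics and 29 of 31 on chow (Fisher's exact test, two-sided, adjusted p = 0.00173). Helicobacter was found in 20 of 30 and 29 of 31 (adjusted p = 0.0157), and Mucispirillum in 3 of 30 and 17 of 31. Mucispirillum passed the filter on low counts, at the same 3 counts, only through chow, so no test is given for it. All 3 genera were found less often in the cecum with antibiotics, where 75.3% of 255 genera differed by this test.

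In the colon Akkermansia was found in 26 of 29 antibiotics samples and 29 of 30 chow samples (Fisher's exact adjusted p = 0.467). Helicobacter was found in 27 of 29 and 30 of 30 (adjusted p = 0.326). Neither had a called difference, where 58.9% of 258 genera differed. Mucispirillum was found in 1 of 29 and 21 of 30, and here too it passed the filter only through chow, so no test is given. Akkermansia and Helicobacter thus stayed countable in most colonic samples with antibiotics, at a median of 9 and 8 counts per sample.

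Between the sites no member passed the main edgeR test, where 46% of 215 genera did with antibiotics and 43.4% of 272 on chow. Akkermansia had an unadjusted p under 0.05 in both diets, and Mucispirillum was too rare to be tested with antibiotics. With antibiotics the log2 fold change of cecum over colon was -1.15 ± 0.53 for Akkermansia (adjusted p = 0.0682) and -0.79 ± 0.47 for Helicobacter (adjusted p = 0.187). A permutation test on log2 shares called both as lower in the cecum, with differences of -1.43 (adjusted p = 0.00218) and -1.12 (adjusted p = 0.0106). The same test called 102 of 215 genera, 48 of them as lower in the cecum. Other settings, this test among them, called Akkermansia in 6 of 13 and Helicobacter in 4 of 13.

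With antibiotics 12 of 30 cecal samples had no Akkermansia, against 3 of 29 colonic ones. The cecal median of 0.00600% compared with a colonic median of 0.0146%. For Helicobacter, 8 of 30 cecal samples were at 0, against 1 of 29 in the colon.

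On chow the log2 fold change of cecum over colon was 1.67 ± 0.74 for Akkermansia (edgeR adjusted p = 0.0600). It was -0.79 ± 0.59 for Helicobacter (adjusted p = 0.318) and 0.65 ± 0.78 for Mucispirillum (adjusted p = 0.566). The call for Akkermansia depended on the setting, and it passed in 5 of 13 other settings. TMMwsp factors gave 2.54 (edgeR adjusted p = 0.00570), but a permutation test gave 0.84 (adjusted p = 0.434). Akkermansia exceeded 1% in 10 of 31 cecal and 6 of 30 colonic chow samples.

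The test of whether the diets differed by another amount in the cecum than in the colon gave -1.87 ± 0.93 for Akkermansia (edgeR adjusted p = 0.0996). It gave 0.10 ± 0.86 for Helicobacter (adjusted p = 1.0) and 1.06 ± 0.89 for Mucispirillum (adjusted p = 0.404). None of the 3 passed, where 42.9% of 322 genera did. With TMMwsp factors Akkermansia had -3.43 (adjusted p = 0.00216) and Helicobacter turned to -1.62 (adjusted p = 0.0470), while the median genus moved to -1.28, against -0.01 without them.

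Where both are well counted, the log ratio of 2 genera within a sample does not depend on the rest of the community. This does not hold for counts at or near 0, where the added count weighs on the ratio. Each of the 3 ratios was compared between diets and between sites by permutation, with 1 added to each count, and p was adjusted over the 12 comparisons. With antibiotics the log2 ratio of Akkermansia to Mucispirillum was 1.49 ± 1.84 in the cecum and 2.90 ± 1.29 in the colon (SD, n = 30 and 29, permutation adjusted p = 0.00744). The ratio of Helicobacter to Mucispirillum was 1.79 ± 1.53 in the cecum and 2.92 ± 1.06 in the colon (permutation adjusted p = 0.0151).

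No other ratio passed, and Mucispirillum was at 0 in 54 of the 59 samples behind them, so they mostly carry the counts of the other genus. The ratio of Akkermansia to Helicobacter with antibiotics was -0.30 ± 2.19 in the cecum and -0.02 ± 1.59 in the colon (SD, permutation adjusted p = 0.556). In no site did a ratio differ between diets with 1 added, although 3 added counts made 2 of them pass.

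The light cycle comparisons asked whether day length moved these genera within a site and diet. In the colon on chow Akkermansia differed among the 5 cycles (edgeR adjusted p = 0.00988), where 22.1% of 222 genera did, and Helicobacter (adjusted p = 0.160) and Mucispirillum (adjusted p = 0.205) did not pass. A permutation test did not call Akkermansia (adjusted p = 0.158).

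Colonic chow samples of LD0/24 had Akkermansia at 0.0115% at the lowest, 0.0388% at the median and 0.290% at the highest. At LD8/16 they ran from 0% through 0.00687% to 0.0248%, and at LD12/12 from 0.0159% through 0.373% to 2.64%. At LD16/8 they ran from 0.00682% through 0.0501% to 1.72%, and at LD24/0 from 0.0235% through 0.0551% to 6.53%. LD8/16 was the cycle with no sample above 0.1%, and its highest sample lay above the lowest sample of LD12/12, so these cycles overlapped.

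Against LD12/12, the log2 fold change of Akkermansia in the colon on chow was -6.32 ± 1.66 for LD8/16 (edgeR unadjusted p = 5.39e-04, adjusted p = 0.114). By edgeR that contrast called 0% of 222 genera, and DESeq2 gave -6.66 for Akkermansia (adjusted p = 3.30e-05). The log2 fold change was -3.08 ± 1.42 for LD0/24 (adjusted p = 0.229, where 1.8% of genera were called), -0.63 ± 1.32 for LD16/8 (adjusted p = 1.0, 3.6% called) and 0.91 ± 1.32 for LD24/0 (adjusted p = 0.782, 18% called). The mean of 1.44% at LD24/0 fell to 0.417% without its highest sample.

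In the cecum on chow the low value at LD8/16 had the same direction. Akkermansia ran from 0% through 0.0165% to 0.317% at LD8/16 (n = 7), against 0.0271%, 1.02% and 7.46% at LD12/12 (n = 6). The log2 fold change was -4.90 ± 1.67 (edgeR unadjusted p = 0.00530, adjusted p = 0.120, with 0% of genera called), and the test over all 5 cycles gave an adjusted p of 0.265. Of the 185 genera tested there, 15.7% differed among the cycles and none of the 3 members did.

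With antibiotics Akkermansia showed no such low value at LD8/16. In the colon its 5 samples of LD8/16 had 0.0112%, 0.0154%, 0.0215%, 0.0238% and 0.0393%, against a range of 0.00836% to 0.0244% with a median of 0.0132% at LD12/12. Colonic chow samples of LD8/16 had a median of 0.00687% and a highest value of 0.0248%, so the fall with antibiotics did not hold at that cycle. The test whether light cycle effects differed between the diets passed for Akkermansia in the colon (edgeR adjusted p = 0.00700), where 11.6% of 258 genera did. In the cecum the same test gave an adjusted p of 0.0783, where 11% of 255 genera passed.

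In the cecum with antibiotics Akkermansia was counted in all 6 samples of LD8/16, from 0.00610% to 0.0331%, and in 2 of 6 samples of LD12/12, at 0.00289% and 0.00590%. At LD16/8 it was counted in 1 of 6 samples, at 0.0239%. A permutation test called LD8/16 as higher than LD12/12 (adjusted p = 0.0137), where it called 36 of 158 genera, 19 of them as higher. By edgeR the difference was 3.01 ± 1.45 on the log2 scale (adjusted p = 0.225), with 8.86% of the 158 genera called. At most 22 counts in a sample stand behind these values.

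Helicobacter and Mucispirillum were not called among light cycles in any site and diet where they were tested. In the colon with antibiotics 31.9% of 144 genera differed among the cycles, and in the cecum with antibiotics 17.7% of 158 did, with no member among them. Mucispirillum in the colon on chow was counted in all 6 samples of LD8/16, from 0.0156% through 0.0249% to 0.268%. It was counted in 3 of 6 samples of LD0/24, with 0.00987% as the highest. Against LD12/12 its log2 fold change was 0.43 ± 1.42 for LD8/16 (edgeR adjusted p = 1.0) and -3.90 ± 1.61 for LD0/24 (adjusted p = 0.176).

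Helicobacter in the cecum on chow had its highest medians at LD12/12, with 0.200%, and at LD24/0, with 0.121%. The median was 0.0875% at LD0/24, 0.0464% at LD16/8 and 0.0210% at LD8/16. A single sample held 87.8% of the summed share at LD8/16 (2.19%), so that the mean of 0.356% there became 0.0507% without it.

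Sequence variants within a genus showed differences that the genus totals hide. They are numbered by total count, and no species name or strain was attached to them. In each genus variant 1 held most counts, with 97.8% of Akkermansia, 88.9% of Helicobacter and 93.2% of Mucispirillum. Variant 1 of Akkermansia and of Helicobacter fell with antibiotics in both sites, where 71.4% of 1246 variants in the cecum and 76.9% of 1222 in the colon fell. The log2 fold change in the cecum was -6.77 ± 1.08 for Akkermansia (edgeR adjusted p = 7.86e-08) and -4.66 ± 0.97 for Helicobacter (adjusted p = 1.16e-05). Mucispirillum variant 1 entered the comparison only through chow and is described by its counts.

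**Figure D3:**
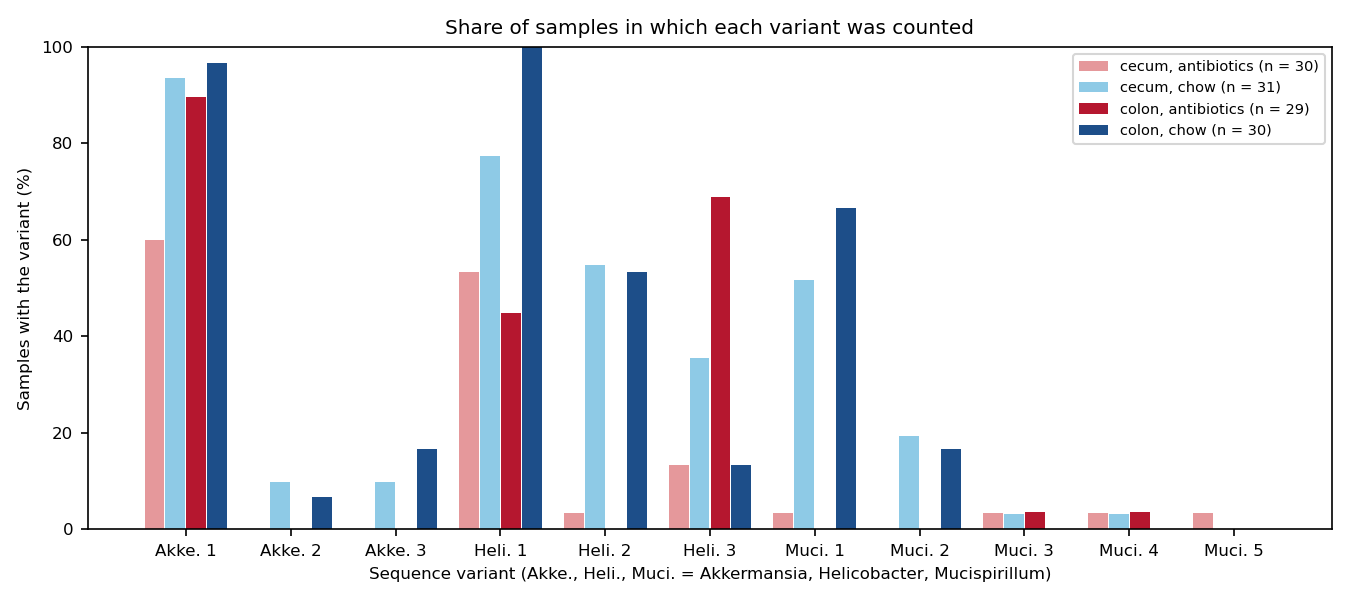
Share of samples (percent) in which each variant of the 3 genera had any count, for cecum and colon with antibiotics (reds) and on chow (blues). In the colon Helicobacter variant 3 is in 20 of 29 antibiotics samples, against 4 of 30 chow samples, while variant 1 of each genus is in fewer antibiotics than chow samples.

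Helicobacter variant 3 had more counts with antibiotics than on chow in the colon, where variants 1 and 2 had fewer. Variant 3 was counted in 20 of 29 colonic antibiotics samples, with 147 counts in all and at most 14 in a sample, against 4 of 30 chow samples, with 17 counts in all and at most 5. It passed the filter on low counts only through the antibiotics samples, and it was singled out after its values were seen, so its counts are a description with no test. Helicobacter variants 6 and 9 also had more counts in the colon with antibiotics, with 6 and 5 counts, against 2 and 0 on chow.

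Helicobacter variant 1 had 89 counts in 13 of 29 colonic antibiotics samples, against 7090 counts in all 30 chow samples, with a log2 fold change of -5.89 ± 0.85 (edgeR adjusted p = 7.58e-09). Variant 3 therefore made up 59.5% of the Helicobacter counts in the colon with antibiotics and 0.225% on chow. In 14 of the 29 antibiotics samples variant 3 was counted without variant 1, and in 6 both were counted. By light cycle, colonic antibiotics samples held variant 3 in 5 of 6 at LD0/24, 3 of 5 at LD8/16, 2 of 6 at LD12/12, 6 of 6 at LD16/8 and 4 of 6 at LD24/0. On chow they held it in 1, 1, 2, 0 and 0 of 6 in the same order, so at LD12/12 the diets had the same number.

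In the cecum variant 3 was in 4 of 30 antibiotics samples (29 counts) and 11 of 31 chow samples (54 counts). With antibiotics the cecum thus had 29 counts, against 147 in the colon, while variant 1 had 117 and 89. For cecum over colon with antibiotics variant 1 had a log2 fold change of 0.29 ± 0.80 (edgeR adjusted p = 0.857). Across colonic antibiotics samples the share of variant 3 and the summed share of the 11 genera named above had a Spearman correlation of -0.305 (n = 29, a description). It was 0.222 in colonic chow samples, and -0.142 with antibiotics and 0.152 on chow in the cecum. For Akkermansia the same correlation was 0.487 with antibiotics and -0.268 on chow in the colon, and 0.217 and 0.0295 in the cecum. For Helicobacter and Mucispirillum it ran from -0.151 to 0.295.

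**Figure D4:**
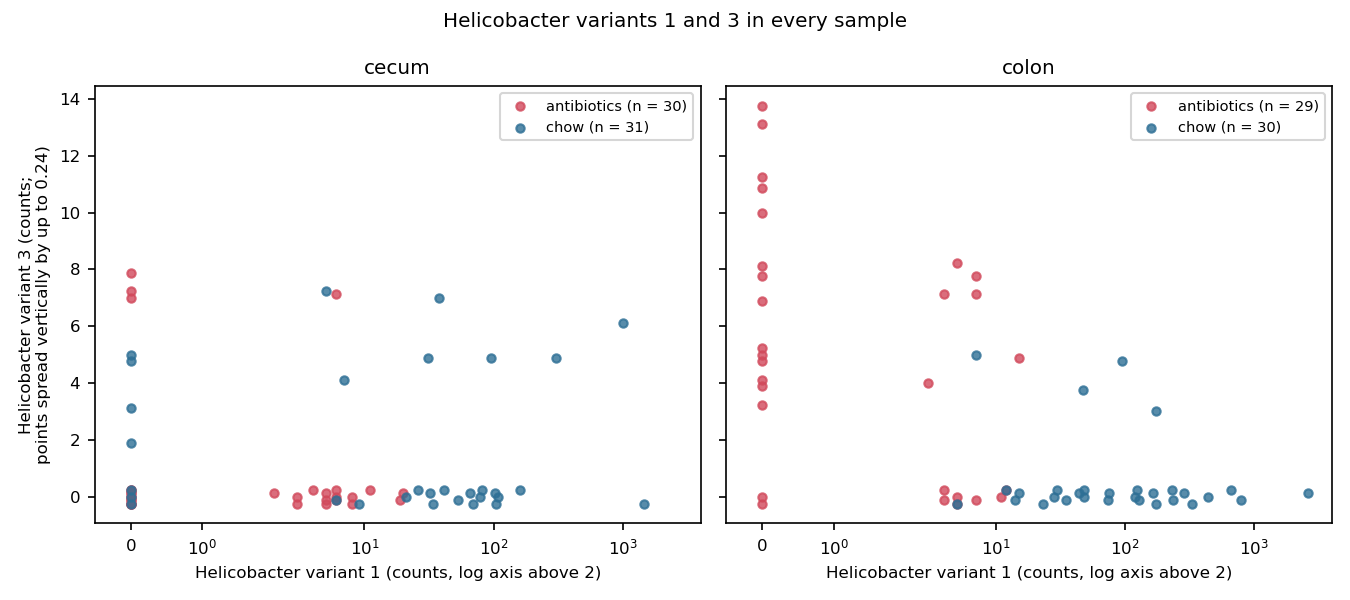
Counts of Helicobacter variant 3 (vertical axis) against variant 1 (horizontal, log axis above 2 counts) in every sample of the cecum and the colon, antibiotics in red and chow in blue. In the colon 14 antibiotics samples stand at 0 on the horizontal axis with variant 3 counted, and no chow sample does.

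Helicobacter variant 2 was nearly restricted to chow. It was counted in 1 of 30 cecal antibiotics samples (2 counts) and 17 of 31 chow samples (653 counts), and in 0 of 29 colonic antibiotics samples and 16 of 30 chow samples (337 counts). It passed the filter on low counts only through chow, so no test is given for it. Variants 4, 5, 7 and 11 of Helicobacter all came from 1 colonic chow sample of LD16/8, the one with 4.67% Helicobacter, with 51, 39, 12 and 6 counts.

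Akkermansia under antibiotics was variant 1 alone, with 152 counts in the cecum and 264 in the colon. Variant 3 of Akkermansia was counted in 8 chow samples and no antibiotics sample. Variant 2 was counted in 5 chow samples, all of LD16/8, where it made up 7.54%, 16.5% and 9.95% of the genus in 3 cecal samples and 11.2% and 11.9% in 2 colonic samples. Of the chow samples with more than 0.1% Akkermansia, 5 of the 6 at LD16/8 held variant 2, against 0 of 17 at the other light cycles. In those 17 samples a count of 0 limits variant 2 to at most 0.0550% of the genus in the deepest case and 3.53% in the shallowest. This pattern was picked after the values were seen and has no test.

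With antibiotics few counts of Mucispirillum were of its main variant. Variant 1 had 2 counts in 1 cecal antibiotics sample and none in the colon, against 1153 and 682 counts on chow. The remaining 17 cecal and 6 colonic counts with antibiotics belonged to variants 3, 4 and 5, which together held 8 counts in chow samples. All 17 of those cecal counts came from 3 samples of LD0/24, each with another variant, at 5 or 6 counts. The 8 chow counts of variants 3 and 4 also came from cecal samples of LD0/24, so these variants were in both diets there. This pattern was picked after the values were seen and has no test.

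No pair of the 3 genera had a correlation past the threshold on chow. Across samples of a site on log2 shares, Helicobacter and Mucispirillum had a Pearson r of 0.406 in the cecum (n = 31) and 0.445 in the colon (n = 30). Spearman's rho was 0.371 and 0.375. With samples shuffled within light cycles and p adjusted over the 6 pairs and sites, neither passed (permutation adjusted p = 0.0984 for both r, 0.186 and 0.206 for rho). Without the 2 samples farthest from the median of Helicobacter, r was 0.475 in the cecum and 0.406 in the colon. Akkermansia had an r of -0.103 with Helicobacter and 0.138 with Mucispirillum in the cecum, and -0.133 and -0.0674 in the colon.

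Among the 112 other or member genera that reached 0.1% in a chow group, the share of Akkermansia over all 61 chow samples was most like that of Coriobacteriaceae_UCG-002, with a Spearman correlation of 0.531. Coprococcus (0.428) and Intestinimonas (0.369) followed. Helicobacter was most like Colidextribacter (0.598), Oscillibacter (0.541) and Clostridium (0.540), and Mucispirillum most like Incertae_Sedis (0.406), Rikenella (0.360) and Helicobacter (0.358). These values describe shares that add up to 100% within a sample and pool both sites.

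Other genera that use mucin were compared with the 3 members. Of 8 such genera listed, 7 were in the table, and in the cecum with antibiotics 3 rose and 1 fell, where 33.3% of all genera rose and 58% fell, with a median log2 fold change of 1.38 against -2.87 over all genera. Parabacteroides, which includes species that feed on mucin glycans, rose to a mean of 64.4% of cecal counts with antibiotics, against 0.454% on chow (8.26 ± 0.67, edgeR adjusted p = 5.43e-18). Muribaculum, a mouse gut genus of the Bacteroidales and the 1 that fell, had 19 counts with antibiotics and 1346 on chow in the cecum, and passed the filter only through chow. In the colon 3 rose, among them Bacteroides (4.39 ± 0.84, adjusted p = 4.79e-06), and 2 fell, where 16.7% of all genera rose and 64.3% fell. Those that fell were Muribaculum and Prevotella, which passed the filter there only through chow.

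Of 4 other genera known from the mucosal surface or from the use of sulfate freed from mucin, all 4 were called in both sites, where 91.4% of all genera were called in the cecum and 81% in the colon. In the colon all 4 fell, where 64.3% of all genera did, so this count lies near the usual outcome. Campylobacter in the colon and Bilophila in the cecum passed the filter only through chow. Desulfovibrio, a sulfate reducer, averaged 0.0893% with antibiotics and 4.44% on chow there (-5.74 ± 0.36, edgeR adjusted p = 6.51e-23). Candidatus_Arthromitus, the segmented filamentous bacteria that attach to the gut lining, had a log2 fold change of -6.13 ± 0.74 in the cecum and -6.26 ± 0.74 in the colon (adjusted p = 2.67e-11 and 1.58e-11). Campylobacter, of the same phylum as Helicobacter, rose in the cecum (5.02 ± 0.71, adjusted p = 2.31e-09). In the colon Campylobacter had a count of 0 in all 29 antibiotics samples, against 544 counts in the chow samples.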

How the data were processed

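PacBio SMRTbell libraries of 16S rRNA gene amplicons were read, per the labels' protocols. The deposited table holds raw counts per sequence variant and sample, and the smallest count above 0 in it is 2. Which denoiser, primers and taxonomy database the authors used was not stated in the labels or files read here. Variants were summed by the genus of the deposited taxonomy, and no 2 samples of a group were copies of each other (301 pairs compared).

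A genus entered a fit if 5 or more of its samples had 3 or more counts. The main test was the robust quasi-likelihood test of edgeR 4.0.16 (R 4.3.3), at a threshold of 0.05. The SE of a log2 fold change is its size over the square root of F. Alternatives used TMMwsp factors, DESeq2 1.42.0 (poscounts), limma 3.58.1 on centred log-ratios (0.5 added), no filter, a replicate block, each light cycle or sample left out, the 11 genera as a covariate and the mean of the 5 within-light contrasts (these 2 chosen after seeing the data), and permutation tests on log2(percent + 0.001) with 100000 resamples (Python 3.11.15, smallest p 1e-05). The rule for named variants, a mean of 0.1% in a group, took variant 1 of each genus, and all other variants named were chosen after their values were seen. The edgeR fit of antibiotics against chow in the colon was tested on simulated data, and the other tests were not. Replicates are separate samples by their titles, and the p-values measure the spread between them. The genera and lists were chosen with earlier results of these data known.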

Additional observations from a re-analysis of the deposited data

Results flagged for a closer look

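In 20 of 53 groups with any count of a genus, 1 sample stood apart from the others by Dixon's test, always on the high side. Chance gives about 1 in 20 groups for normally spread values, a rate that does not hold for skewed shares bounded at 0. In 3 of the 20 all other samples were at 0, so the test's outcome was fixed there. The groups have 5 to 7 samples, 6 of the 20 were with antibiotics and 14 on chow. For Akkermansia these samples were 0.0331% in LD8/16 and 0.0239% in LD16/8 of the cecum with antibiotics. On chow they were 3.61% in LD0/24, 0.317% in LD8/16 and 7.46% in LD12/12 of the cecum, and 6.53% in LD24/0 of the colon.

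For Helicobacter the samples that stood apart with antibiotics were 0.0290% in LD12/12 of the cecum and 0.0307% in LD8/16 of the colon. On chow they were 2.19% in LD8/16, 1.93% in LD12/12, 0.203% in LD16/8 and 0.474% in LD24/0 of the cecum. In the colon they were 0.815% in LD8/16 and 4.67% in LD16/8 on chow. For Mucispirillum they were 0.00315% in LD12/12 of the cecum and 0.00886% in LD12/12 of the colon with antibiotics. On chow they were 0.0655% in LD16/8 and 0.172% in LD24/0 of the cecum, and 0.165% in LD16/8 and 0.0618% in LD24/0 of the colon. The same colonic chow sample of LD16/8 held the high values of Helicobacter and of Mucispirillum.

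By edgeR the effect of light cycle on Akkermansia in the colon differed between antibiotics and chow (interaction test, adjusted p = 0.00700), where 11.6% of 258 genera did. Colonic antibiotics samples had at most 26 counts of Akkermansia, which leaves little room for an effect there. On chow a permutation test did not call the light cycles (adjusted p = 0.158), and the interaction was not tested by permutation.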

How the results depend on the processing

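Under other settings 569 values of the members' comparisons kept direction and side of the threshold. The falls of Akkermansia and of Helicobacter with antibiotics were called in both sites under 13 alternatives, with 2 exceptions. Akkermansia in the colon had -0.84 by limma on centred log-ratios, and Helicobacter in the cecum had -3.54 with the 11 genera as a covariate. Cecum over colon for Akkermansia on chow passed with TMMwsp factors (2.54), DESeq2 (2.31), limma (1.75), no filter (1.67) and without LD24/0 (2.17). With antibiotics it passed with TMMwsp (-1.59), DESeq2 (-1.20), limma (-1.91), without LD0/24 (-1.47) and by permutation (-1.43). Helicobacter with antibiotics passed with TMMwsp (-1.38), DESeq2 (-0.91), limma (-1.51) and permutation (-1.12). On chow Helicobacter turned to 0.026 with TMMwsp, and Mucispirillum to -0.19 by permutation. The difference between sites in the effect of antibiotics passed for Akkermansia with TMMwsp (-3.43), limma (-3.30) and no filter (-1.87), and turned for Helicobacter with TMMwsp (-1.62) and limma (-0.82). It turned for Mucispirillum with TMMwsp (-0.56), limma (-0.43) and the covariate (-0.75). Among light cycles, Akkermansia lost its call in the colon on chow by permutation (adjusted p = 0.158). With antibiotics it gained one by limma in the colon (adjusted p = 0.0464) and by permutation in the cecum (adjusted p = 0.0482). Leaving out 1 sample in turn gave adjusted p-values of 0.00773 to 0.0226 for Akkermansia in the colon on chow. The same gave 0.0286 to 0.722 in the cecum with antibiotics, where the lowest value was without LD16/8 replicate 2. The interaction of diet and light cycle passed for Akkermansia in the cecum by limma (adjusted p = 0.0252) and with no filter (adjusted p = 0.00786). In the colon on chow, Akkermansia at LD24/0 over LD12/12 turned to -0.43 by permutation and ran from -0.87, without LD24/0 replicate 2, to 1.90 with 1 sample left out. LD16/8 ran from -1.63 to 0.35, where the highest was without LD12/12 replicate 5, and Mucispirillum at LD8/16 ran from -0.47, without LD8/16 replicate 1, to 1.33. Helicobacter variant 1 turned to -0.16 for cecum over colon with antibiotics under TMMwsp. With 3 added counts the log ratio of Akkermansia to Mucispirillum between diets turned to -0.25 in the colon and passed in the cecum (-1.96), and that of Helicobacter to Mucispirillum passed in the colon (-1.42). With 0.01 added to percent the correlation of Helicobacter and Mucispirillum passed in the colon (r = 0.562). At 10 counts Helicobacter was found in 13 of 29 colonic antibiotics samples and passed, and at 1 count in 22 of 30 cecal ones and missed the threshold. Unless a setting changed the samples or genera tested, the cause was not tested.

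With the replicate block, Akkermansia passed for cecum over colon with antibiotics (-1.99), Mucispirillum turned to -0.21 on chow, and the difference between sites turned to -0.30 for Helicobacter, with no other change of call or direction. Samples of 1 number did not deviate together, with a mean correlation of -0.00798 between cecum and colon, where 10 of 59 pairs were over 0.1, so the numbers do not pair samples.

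Counts of all genera called moved by over 1.5 times in several comparisons. The cecum against the colon on chow had 118 without and 17 with the covariate, and antibiotics against chow in the cecum 233 and 111. With TMMwsp factors the share of called genera that were higher was 51.0% for cecum over colon on chow, against 31.4%, and 46.5% with antibiotics, against 56.6%. Among light cycles the lowest and highest counts were 21 and 55 (cecum, 28) and 26 and 69 (colon, 46) with antibiotics, and 10 and 128 (cecum, 29) and 37 and 95 (colon, 49) on chow, with the main count beside the site. For the interactions they were 17 and 48 in the cecum (28), 25 and 70 in the colon (30) and 52 and 192 for diet by site (138). With antibiotics the members rest on at most 26 counts in a sample, which limits what can be told about them there.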
